A study of Mus musculus with 9 samples.

Results

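The mRNAs described here are those of 10 genes of the NF-κB pathway, chosen by name among the 36410 genes of the count table. They are the 5 subunits Rel, Rela, Relb, Nfkb1 and Nfkb2, the 3 inhibitors Nfkbia, Nfkbib and Nfkbie, and the 2 IκB kinases Chuk and Ikbkb. The RNA came from 3 immortalized mouse striatal cell lines that differ in the length of the glutamine repeat in exon 1 of huntingtin. Control cells (STHdhQ7/Q7) carry 7 glutamines on both alleles, HD-het cells (STHdhQ7/Q111) carry 7 on one allele and 111 on the other, and HD-homo cells (STHdhQ111/Q111) carry 111 on both. The comparison asks how the mRNA supply of the pathway differs between cells without, with one and with both mutant alleles. All 3 lines are cultured cells derived from mouse embryos, labelled C57/BL6, and no treatment is named for any of them. As each genotype is 1 line, a difference of genotype cannot be told apart from one of line. Each line has 3 libraries of poly(A)-selected RNA, labelled as replicates. Nothing in the labels says that they came from separate cultures, and p-values then measure only the spread between these libraries, which may be technical.

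NF-κB is a family of dimeric transcription factors. In resting cells IκB proteins hold the dimers in the cytoplasm, and on stimulation the IκB kinase complex phosphorylates the IκB proteins, which are then degraded, so that the dimers enter the nucleus. In the canonical branch this releases mainly dimers of RelA or c-Rel with the processed Nfkb1 product, whereas in the noncanonical branch IKKα triggers processing of the Nfkb2 precursor, which frees RelB dimers. Several genes of the pathway, Nfkbia and Nfkb2 among them, are textbook targets of NF-κB itself, and the pathway drives cytokine, chemokine and survival genes in glia, neurons and fibroblasts.

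Because the pathway is known to act on its own genes, the promoter letters are shown first. RefSeq windows from 250 bases before to 50 bases after the start site (GRCm38) were at hand for 7 of the 10 genes, Rel, Rela, Nfkb2, Nfkbia, Nfkbib, Nfkbie and Chuk, and were searched on both strands for the 10-base κB consensus. A match was present in 2776 of all 32817 promoter windows (8.46%). Among the 7 genes it was present in the windows of 4, Rel, Nfkb2, Nfkbia and Nfkbie, and these letters were not in the windows of Rela, Nfkbib and Chuk. This count is per gene, over 9 windows of which 3 belong to Nfkb2, whereas the share over all windows is per window. The stretches below are written 5′ to 3′ along the gene, with the matched bases in capitals. Those of Rel, Nfkbia and Nfkbie run from base -120 to base -1, counting the first transcribed base as 0.

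Rel, minus strand, chr11:23770970-23771089: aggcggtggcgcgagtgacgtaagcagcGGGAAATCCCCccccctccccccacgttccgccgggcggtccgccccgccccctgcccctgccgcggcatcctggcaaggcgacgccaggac

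Nfkbia, minus strand, chr12:55492648-55492767: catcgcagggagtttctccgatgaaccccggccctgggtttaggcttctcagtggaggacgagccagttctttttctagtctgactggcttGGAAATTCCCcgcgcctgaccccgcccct

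Nfkbie, plus strand, chr17:45555580-45555699: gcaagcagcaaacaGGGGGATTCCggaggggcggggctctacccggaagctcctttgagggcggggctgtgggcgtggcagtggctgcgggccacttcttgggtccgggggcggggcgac

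In Rel the capitals span bases -92 to -82 and hold a pair of overlapping matches. The Nfkbia match spans bases -29 to -20 and reads as the κB consensus on the strand opposite to the gene. The Nfkbie match spans bases -106 to -97. For Nfkb2 the windows of 3 RefSeq start sites were at hand, numbered 1 to 3 here. As the gene has more than 1 window, the 4 matched places in them are shown with short flanks only.

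Nfkb2, plus strand, chr19:46304689-46304717: gatcgtcacGGGAATTCCCCccctcgggg

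Nfkb2, plus strand, chr19:46304716-46304745: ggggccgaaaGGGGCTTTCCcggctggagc

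Nfkb2, plus strand, chr19:46305449-46305478: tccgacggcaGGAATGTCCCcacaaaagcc

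Nfkb2, plus strand, chr19:46305695-46305724: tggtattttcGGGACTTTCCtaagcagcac

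The first of these lies at bases -39 to -29 and the second at bases -11 to -2 of start site 1, the third at bases -236 to -227 and the fourth at bases 10 to 19 of start site 2. The fourth also falls in the window of start site 3, at bases -225 to -216. A match is a description of the letters and not of binding, which was not measured here.

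Library totals ran from 29507665 to 41197931 counts, and 13508 genes, among them all 10 described here, had enough counts to be tested. Levels are given as CPM, the count of a gene scaled to the normalized total of its library. HD-homo replicate 2 was the deepest library and stood farthest from the others of its line, with a variance of 26.9 and 39.2 times that of counting alone against HD-homo replicates 1 and 3. Between other libraries of a line this multiple ran from 2.20 to 22.6. The labelled cell type was poorly borne out by its markers. Only 4 of 13 striatal neuron markers (Foxp1, Meis2, Pde10a and Penk) and 3 of 8 general neuron markers reached 1 CPM in any library, no read was counted on Drd1, and 8 of 10 mesenchymal markers reached 1 CPM. The mesenchymal markers summed to between 10300 and 11100 CPM in control cells, between 17700 and 19200 in HD-het cells and between 10700 and 11700 in HD-homo cells. In control and HD-het cells the sum was carried by Vim, Col1a1 and Acta2, and its members did not move together. From control to HD-het cells the mean of Col1a1 went from 2460 to 7100 CPM and that of Acta2 from 2270 to 5290, while that of Col1a2 went from 73.4 to 3.15 and that of Vim from 5380 to 4570. The like sums of control and HD-homo cells also hold unlike members. In HD-homo cells the mean of Acta2 was 91.8 CPM and that of Col1a2 1490. Pdgfra had a mean of 307 CPM there against 5.21 in control cells. Of 11 microglia and macrophage markers 3 reached 1 CPM. No read was counted on the defining Aif1, Tyrobp and C1qa, although the sum of the list, carried by Tmem119, was between 45.9 and 57.8 CPM in HD-het cells against at most 18.0 CPM in the other lines. None of 7 lymphocyte and none of 6 endothelial markers reached 1 CPM, and 1 of 6 astrocyte and 2 of 6 oligodendrocyte markers did. The astrocyte markers, carried by Slc1a3, summed to between 2.77 and 3.01 CPM in control, between 1.1 and 1.59 in HD-het and between 12.8 and 18.6 in HD-homo libraries, with at most 6 reads on Gfap and 1 on Aqp4 in any library. The neuronal marker Stmn2 had a mean of 53.7 CPM in control, 2.71 in HD-het and 2.75 in HD-homo cells. In such bulk libraries fewer cells of a kind and less RNA per cell cannot be told apart.

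In HD-het cells 9 of the 10 NF-κB mRNAs were lower than in control cells and none was higher. Nfkbie fell most, to a mean of 2.09 CPM from 6.14, followed by Nfkb2 and Nfkbia, and Relb was the exception. In HD-homo cells, in contrast, 5 were higher than in control cells (Rel, Relb, Nfkb1, Nfkbia and Nfkbie), none was lower, and the other 5 did not pass the test. Between the HD lines all 10 were higher in HD-homo cells. The threshold was an adjusted p of 0.05 by the quasi-likelihood test of edgeR, with Benjamini-Hochberg adjustment over all tested genes. These lines differ widely, and the counts have to be read against that. Of all tested genes 58.6% passed between HD-homo and control cells (29.6% higher and 28.9% lower), 65.1% between HD-het and control cells (33.8% higher, 31.4% lower) and 71.6% for the 2 HD lines (36% higher, 35.6% lower in HD-homo cells). The median log2 fold change of the 10 genes was 0.13, -0.50 and 0.59 in these comparisons, beside 0.01, 0.03 and 0 for all tested genes. Both HD lines are set against the same control libraries, and the comparisons are therefore given side by side. The libraries did not overlap for the same 5, 9 and 10 genes, beside 32.7% of all tested genes with higher HD-homo than control libraries, 35.4% with lower HD-het than control libraries and 36.5% with higher HD-homo than HD-het libraries. Col1a1, Acta2 and Tmem119 were higher in HD-het cells, whereas Col1a2 and Vim, of the same list as Col1a1 and Acta2, were lower there. The astrocyte marker sum, carried by Slc1a3, was highest in HD-homo and lowest in HD-het cells, as were 7 of the NF-κB genes. The astrocyte markers Gfap and Aldh1l1 were instead lowest in HD-homo cells, on at most 6 and 7 reads in any library. The part of these markers was not tested.

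**Figure D1:**
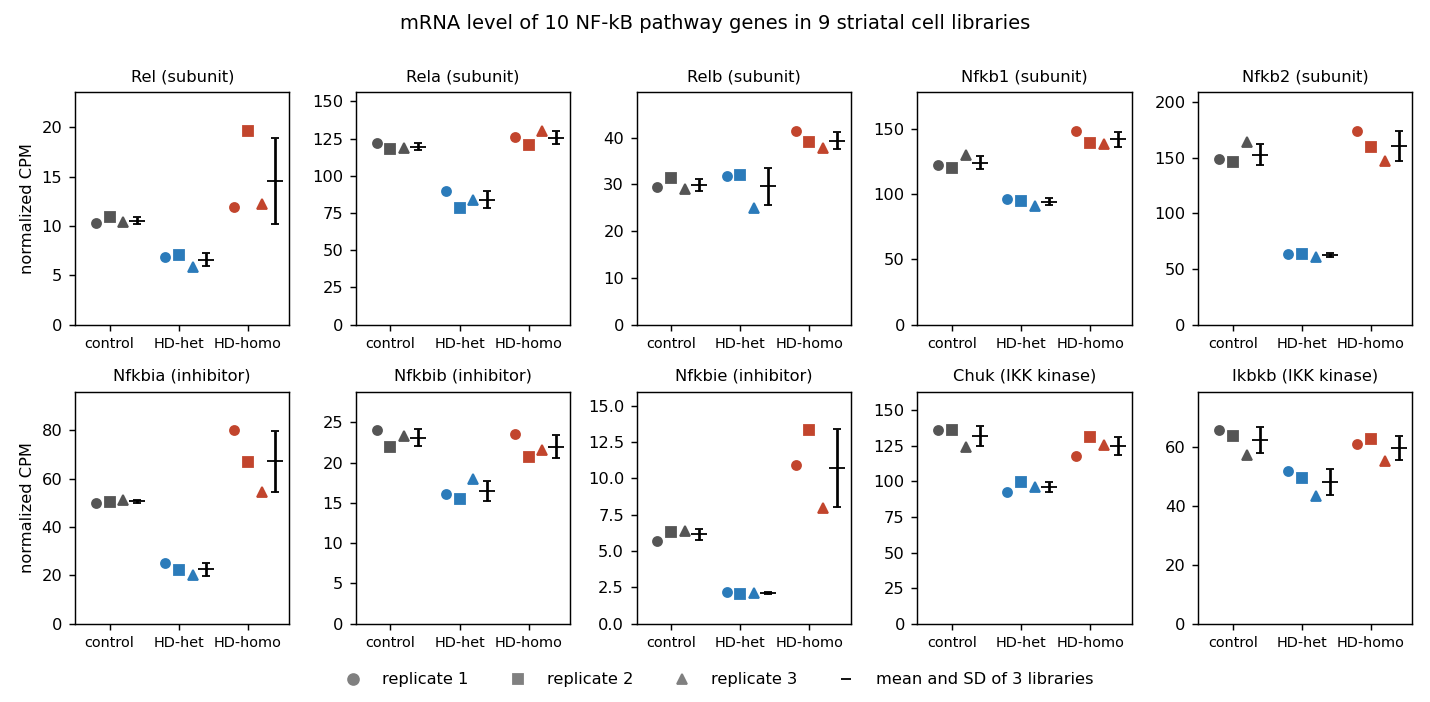
Normalized CPM (linear axis from 0) of the 10 genes in the 9 libraries, with circles, squares and triangles for replicates 1, 2 and 3, and the mean ± SD of 3 libraries in black. The HD-het libraries lie below all others for each gene but Relb, and the HD-homo libraries are widely spread for Rel, Nfkbia and Nfkbie.

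Among the subunits, Rela (chromosome 19 of GRCm38, 5637483 to 5648130, plus strand, 11 exons in its GENCODE reference transcript) encodes RelA, the main transactivating partner of the canonical branch. Rela CPM was 122, 118 and 119 in control, 90.1, 78.3 and 83.8 in HD-het and 126, 121 and 130 in HD-homo libraries. All HD-het libraries were below the others, and those of HD-homo cells overlapped the control libraries. The Rela mRNA was lower in HD-het cells, with a log2 fold change against control cells of -0.51 ± 0.0614 (± SE, edgeR adjusted p = 2.6e-05). Its log2 fold change was 0.07 ± 0.0610 in HD-homo against control cells (± SE, edgeR adjusted p = 0.33) and 0.58 in HD-homo against HD-het cells (edgeR adjusted p = 6.4e-06).

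Nfkb1 (chromosome 3, 135584655 to 135691547, minus strand, 25 exons) encodes the precursor of the canonical DNA-binding partner. Nfkb1 CPM was 122, 120 and 130 in control, 96.0, 94.8 and 91.0 in HD-het and 148, 139 and 138 in HD-homo libraries. The 3 lines formed separate groups for this gene, with HD-het lowest and HD-homo highest. Relative to control cells, HD-het cells had a log2 fold change of -0.40 ± 0.0557 (± SE, edgeR adjusted p = 7.8e-05). The increase in HD-homo cells was small, 0.19 ± 0.0554 on the log2 scale (± SE, edgeR adjusted p = 0.011). It missed the threshold without control replicate 2 (0.17, edgeR adjusted p = 0.056, the highest over 16 alternatives, which began at 0.0043).

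Rel (chromosome 11, 23736847 to 23770970, minus strand, 10 exons) encodes c-Rel, best known from lymphocytes. Rel CPM was 10.3, 10.9 and 10.4 in control, 6.88, 7.04 and 5.81 in HD-het and 11.9, 19.6 and 12.2 in HD-homo libraries. The groups did not overlap, but HD-homo replicate 2 stood far above the other libraries of its line. The Rel mRNA was lower in HD-het cells, at a log2 fold change of -0.68 ± 0.181 (± SE, edgeR adjusted p = 0.0061). In HD-homo cells it was 0.47 ± 0.173 (± SE, edgeR adjusted p = 0.037). Without HD-homo replicate 2 that value was 0.19 (edgeR adjusted p = 0.14, against 0.015 to 0.14 over 16 alternatives), and 6 of these alternatives, among them leaving out any of the control libraries, lost the call.

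Relb (chromosome 7, 19606217 to 19629438, minus strand, 12 exons) encodes the partner freed in the noncanonical branch. Relb CPM was 29.4, 31.4 and 29.0 in control, 31.8, 32.0 and 25 in HD-het and 41.4, 39.1 and 37.7 in HD-homo libraries. Alone among the 10 genes, its HD-het libraries overlapped the control libraries. The log2 fold change in HD-het against control cells was -0.02 ± 0.0946 (± SE, edgeR adjusted p = 0.89), and in HD-homo against control cells it was 0.40 ± 0.0939 (± SE, edgeR adjusted p = 0.0038). Against HD-het cells the HD-homo value was 0.41 (edgeR adjusted p = 0.0021).

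Nfkb2 (chromosome 19, 46304320 to 46312385, plus strand, 22 exons), with κB matches in each of the 3 windows searched, encodes the precursor that is processed in the noncanonical branch. Nfkb2 CPM was 149, 146 and 164 in control, 63.6, 63.6 and 60.8 in HD-het and 174, 160 and 147 in HD-homo libraries. Control and HD-homo libraries overlapped, and the HD-het libraries were all below them. Relative to control cells the Nfkb2 mRNA of HD-het cells was 2.44-fold lower, a log2 fold change of -1.29 ± 0.0716 (± SE, edgeR adjusted p = 7.7e-08), which lay at percentile 4.75 of all tested genes. In HD-homo against control cells it was 0.07 ± 0.0698 (± SE, edgeR adjusted p = 0.42). The 3′ end of Nfkb2 overlaps that of Psd on the other strand, and 6.58% of the 50-base words of its transcript also occur in Psd. With the noncoding gene AC114539.1, which overlaps Nfkb2 on the other strand and is not in the count table, the share is 18.5%. The counts of Psd itself corresponded to between 2.68 and 3.29 CPM in control and HD-het cells and to between 6.98 and 7.17 CPM in HD-homo cells.

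Among the inhibitors Nfkbia and Nfkbie differed most. Nfkbia (chromosome 12, 55489410 to 55492647, minus strand, 6 exons) encodes IκBα, which retains RelA dimers and is resynthesized on NF-κB activation. Nfkbia CPM was 50.1, 50.5 and 51.1 in control, 25.3, 22.1 and 20 in HD-het and 80.0, 66.7 and 54.6 in HD-homo libraries. The groups were separate, and the HD-homo libraries were spread widely while the control libraries were nearly equal. The Nfkbia mRNA of HD-het cells was 2.25-fold below the control level, a log2 fold change of -1.17 ± 0.127 (± SE, edgeR adjusted p = 1.1e-05). That of HD-homo cells was 1.33-fold above it, a log2 fold change of 0.41 ± 0.122 (± SE, edgeR adjusted p = 0.014). Without HD-homo replicate 1 this increase was 0.26 and missed the threshold (edgeR adjusted p = 0.057, against 0.00082 to 0.057 over 16 alternatives).

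Nfkbie (chromosome 17, 45555703 to 45563169, plus strand, 6 exons) encodes IκBε, a further inhibitor whose gene is known to respond to NF-κB. Nfkbie CPM was 5.72, 6.33 and 6.36 in control, 2.17, 2.01 and 2.10 in HD-het and 10.9, 13.3 and 7.93 in HD-homo libraries. Its lines were fully separate, on counts of 66 to 77 reads in the HD-het libraries. The Nfkbie mRNA of HD-het cells was 2.93-fold below the control level (log2 fold change -1.55 ± 0.185 SE, edgeR adjusted p = 2.4e-05). That of HD-homo cells was 1.74-fold above it (log2 fold change 0.80 ± 0.162 SE, edgeR adjusted p = 0.0014). Between the HD lines the difference was 5.11-fold, a log2 fold change of 2.35 ± 0.180 (± SE, edgeR adjusted p = 4.5e-07), at percentile 95.6 of all tested genes.

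Nfkbib (chromosome 7, 28758251 to 28767512, minus strand, 7 exons) encodes IκBβ, which is degraded and restored more slowly than IκBα. Nfkbib CPM was 24.0, 21.9 and 23.3 in control, 16.1, 15.5 and 17.9 in HD-het and 23.5, 20.7 and 21.6 in HD-homo libraries. Unlike the other inhibitors, it had overlapping control and HD-homo libraries. The log2 fold change was -0.48 ± 0.0819 in HD-het against control cells (± SE, edgeR adjusted p = 0.00032) and -0.07 ± 0.0808 in HD-homo against control cells (± SE, edgeR adjusted p = 0.46). Nfkbib shares 13.3% of its 50-base words with Ccer2 on the other strand, which had at most 0.0613 CPM in any library. It also overlaps Sirt2 on the other strand, which had between 34.7 and 52.9 CPM, but the Nfkbib transcript used shares no such word with Sirt2. Library preparation kept the strand, but the strand setting of the counting is not given in the sources used here.

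The kinases had the smallest log2 fold changes between the HD lines, with values close to those of Relb and Nfkbib in view of their standard errors. Chuk (chromosome 19, 44073335 to 44107480, minus strand, 21 exons) encodes IKKα, the kinase of the noncanonical branch. Chuk CPM was 136, 136 and 124 in control, 92.4, 99.6 and 96.1 in HD-het and 118, 131 and 126 in HD-homo libraries. Ikbkb (chromosome 8, 22659212 to 22706589, minus strand, 22 exons) encodes IKKβ, the main kinase of the canonical branch. Ikbkb CPM was 65.5, 63.6 and 57.2 in control, 51.7, 49.2 and 43.3 in HD-het and 60.9, 62.6 and 55.1 in HD-homo libraries. For both kinases the HD-het libraries lay below all others and the control and HD-homo libraries overlapped. In HD-het against control cells the log2 fold change was -0.46 ± 0.0621 for Chuk (± SE, edgeR adjusted p = 6.1e-05) and -0.37 ± 0.0827 for Ikbkb (± SE, edgeR adjusted p = 0.0022). In HD-homo against control cells the values were -0.08 (edgeR adjusted p = 0.29) and -0.06 (edgeR adjusted p = 0.54).

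**Figure D2:**
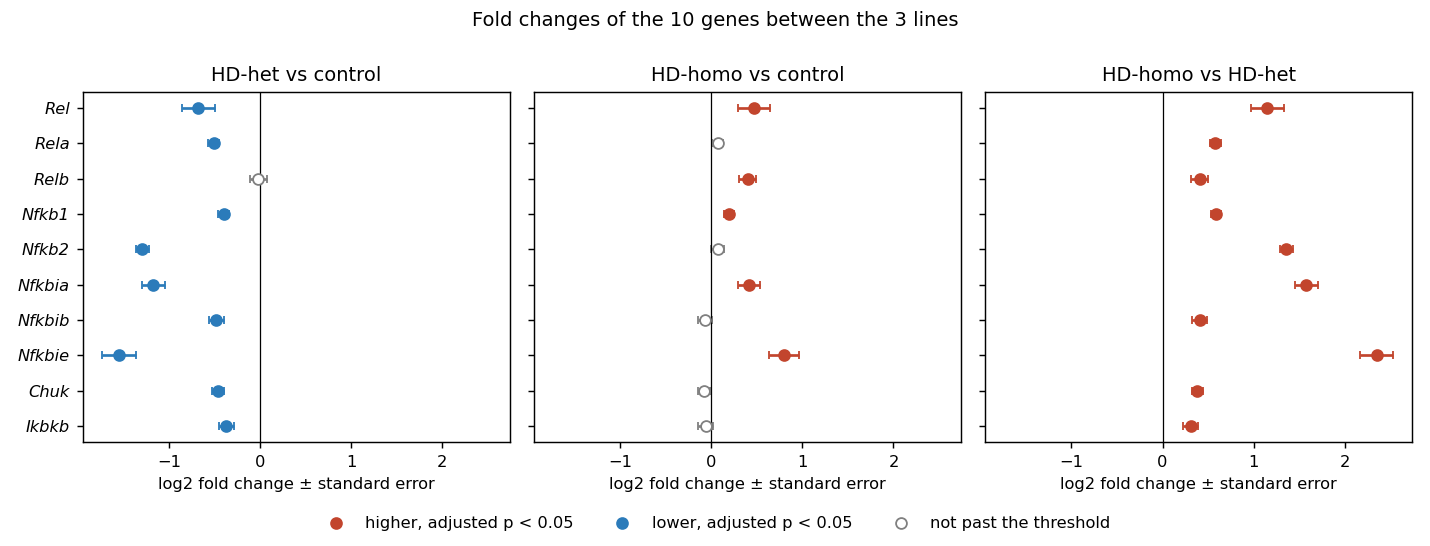
Log2 fold change ± standard error of the 10 genes in the 3 comparisons, red for higher and blue for lower at an adjusted p under 0.05 (edgeR's quasi-likelihood test) and open for genes not past it. In HD-het against control cells 9 points lie left of 0 and are called lower, in HD-homo against control cells 5 are called higher, and between the HD lines all 10 are called higher, from 0.31 for Ikbkb to 2.35 for Nfkbie.

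The HD-het line had the lowest mean for each of the 10 genes. For 7 of them, the subunits, Nfkbia and Nfkbie, the HD-homo mean was the highest, and for Nfkbib, Chuk and Ikbkb the control mean was. Between the HD lines, the log2 fold changes were 0.59 for Nfkb1, 1.15 for Rel, 1.36 for Nfkb2, 1.58 for Nfkbia, 0.41 for Nfkbib, 0.38 for Chuk and 0.31 for Ikbkb, with adjusted p between 2.3e-08 for Nfkb2 and 0.0057 for Ikbkb (edgeR, Benjamini-Hochberg).

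Levels of different genes were compared as CPM per kilobase of transcript. Rela had the highest mean in each line, 44.0 CPM per kilobase in control, 30.9 in HD-het and 46.2 in HD-homo cells, although in HD-homo cells its libraries overlapped those of Nfkbia, at 42.5. The next places differed between the lines. In control cells Nfkb2 followed at 39.8 and overlapped Chuk at 37.7, whereas in HD-het cells Chuk at 27.4 and Nfkb1 at 22.8 came before Nfkb2 at 16.3, each apart from its neighbour. At the lower end stood Nfkbie and Rel, at 2.52 and 1.42 CPM per kilobase in control cells and at 4.39 and 1.95 in HD-homo cells. In HD-het cells, at 0.860 and 0.881, their libraries overlapped. These levels depend on the transcript taken for the length. With the union of all annotated exons in its place, Nfkbia rather than Rela was highest in HD-homo cells. In HD-het cells Nfkb2, at 13.7, was then above Nfkb1, at 7.79. In control cells Nfkb1 was then at 10.3 in place of 30.1 CPM per kilobase. The sums and shares of the subunits and inhibitors, and the level of the ratios given below, rest on the same choice of transcript.

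Summed over the 5 subunits, the level was 129 ± 3.06 CPM per kilobase (SD, n = 3) in control, 84.3 ± 3.73 in HD-het and 142 ± 5.29 in HD-homo cells. Nfkb2 made up 30.9% ± 1.07 (SD, n = 3) of this sum in control, 19.3% ± 0.551 in HD-het and 29.3% ± 1.58 in HD-homo cells. Relb took 10.5% in control and 15.9% in HD-het cells, and Rela took between 32.5% and 36.7% in all lines. Among the lines, HD-het cells had the smallest share of Nfkb2 and the largest share of Relb, which was 12.5% in HD-homo cells. For the inhibitors the sum was 45.8 ± 0.551 CPM per kilobase (SD, n = 3) in control, 23.1 ± 1.42 in HD-het and 57.6 ± 9.15 in HD-homo cells. Inhibitor mRNA per subunit mRNA was 0.355 in control, 0.274 in HD-het and 0.404 in HD-homo cells, where the libraries ranged from 0.349 to 0.450 and overlapped the control libraries (0.350 to 0.359).

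A pair of ratios within each library was tested. Nfkbia per Rela, the main inhibitor over its main client, was 0.708, 0.739 and 0.740 in control, 0.483, 0.485 and 0.412 in HD-het and 1.1, 0.950 and 0.721 in HD-homo libraries. The HD-het ratios were the lowest, and HD-homo replicate 3 lay within the control range. On the log2 scale the ratio differed by -0.67 between HD-het and control cells (two-sided exact permutation test, which with 3 libraries against 3 gives at the least p = 0.10 and gave p = 0.10, adjusted p = 0.15 over the 3 comparisons) and by 0.32 between HD-homo and control cells (exact permutation p = 0.30, adjusted p = 0.30). Nfkb2 per Nfkb1, the noncanonical over the canonical precursor, was 1.31, 1.31 and 1.34 in control, 0.709, 0.718 and 0.715 in HD-het and 1.27, 1.23 and 1.14 in HD-homo libraries. Its values did not overlap between any of the lines. The log2 difference against control cells was -0.89 in HD-het and -0.13 in HD-homo cells, and between the HD lines it was 0.76 (exact permutation p = 0.10 for each, adjusted p = 0.10). This design cannot reach a p of 0.05.

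**Figure D3:**
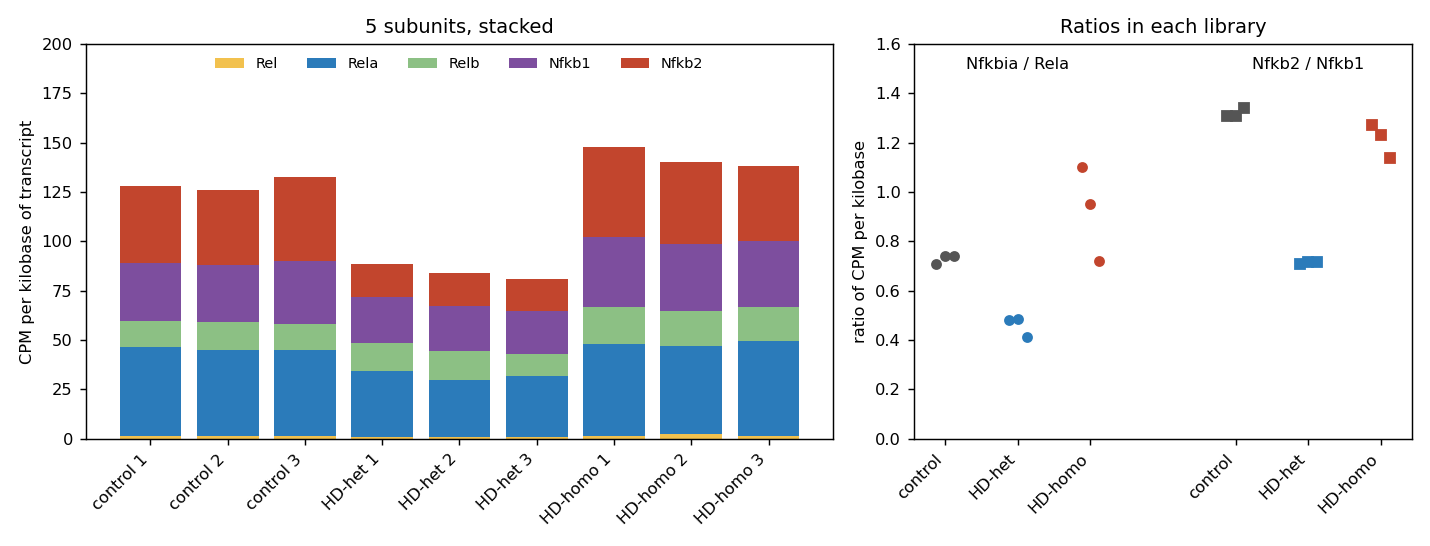
Left, CPM per kilobase of transcript of the 5 subunits, stacked by library from 0, with HD-het totals averaging 84.3 and the others between 126 and 148. Right, the ratios Nfkbia/Rela (circles) and Nfkb2/Nfkb1 (squares) in each library, with replicates 1 to 3 from left to right within a line and the HD-het libraries lowest for both.

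The pattern over the 9 libraries was also set beside that of every other tested gene, by Pearson's r of log2 CPM. The 9 points share 3 lines, and r is given as a description. The genes most like each were Ift80 (r = 0.985) and Vps41 for Rel, Suox (0.994) and Abt1 for Rela, Rsph6a (0.970) and Fuk for Relb, Pdp2 (0.996) and Pgd for Nfkb1, and Wdr45b (0.996) and Gsr for Nfkb2. For the inhibitors they were Rrp1 (0.995) and Cyhr1 for Nfkbia, Prpf8 (0.991) and Tmem97 for Nfkbib, and Rabep2 (0.994) and G6pdx for Nfkbie, and for the kinases Actr6 (0.990) and Ccdc141 for Chuk and Efnb3 (0.986) and Slc22a21 for Ikbkb. Rsph6a had a mean of 0.113 CPM in control, 0.127 in HD-het and 0.445 in HD-homo cells, so that its r rests on few reads. Within the 10 genes the most alike were Nfkb1 and Nfkbia (0.983) and the least alike were Relb and Nfkbib (0.262).

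Other regulators of the pathway were taken from a list of which 37 genes were tested. In HD-homo against control cells 20 were higher and 6 lower at an adjusted p under 0.05, in HD-het against control cells 11 were higher and 12 lower, and in the comparison of both HD lines 19 were higher and 6 lower in HD-homo cells. That is 70.3%, 62.2% and 67.6% of these genes, beside the 58.6%, 65.1% and 71.6% of all tested genes. The median log2 fold changes were 0.19, -0.04 and 0.26. Birc3, which encodes the ubiquitin ligase cIAP2 and is a known NF-κB target, had 0.591, 1.01 and 0.744 CPM in control, 2.51, 3.17 and 2.31 in HD-het and 11.4, 13.6 and 9.69 in HD-homo libraries. It rose in both HD lines, by a log2 fold change of 1.76 ± 0.234 in HD-het cells (± SE, edgeR adjusted p = 5.5e-05) and of 3.88 ± 0.213 in HD-homo cells (± SE, edgeR adjusted p = 4.3e-08). Traf1, an adaptor of the TNF receptor family, had 3.24, 2.38 and 3.28 CPM in control, 0.451, 0.610 and 0.240 in HD-het and 35.4, 28.5 and 36.5 in HD-homo libraries. Like Nfkbie, it was lowest in HD-het and highest in HD-homo cells, by -2.76 ± 0.266 on the log2 scale in HD-het cells (± SE, edgeR adjusted p = 4.6e-06) and by 3.50 ± 0.170 in HD-homo cells (± SE, edgeR adjusted p = 1.6e-08).

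Bcl3, an atypical IκB protein that acts in the nucleus, had 7.12 ± 1.98 CPM (SD, n = 3) in HD-homo and 0.917 ± 0.315 in control cells. At most 2 reads were counted on it in an HD-het library, and HD-homo cells had at least 80.4-fold more of it, taken against 3 counts per library. Nfkbid, another nuclear IκB protein, and Ikbke, an IKK-related kinase, rose in both HD lines. Nfkbid had a mean of 0.341 CPM in control, 1.27 in HD-het (log2 fold change 1.87) and 2.38 in HD-homo cells (2.78), and Ikbke had 1.38 CPM in control, 3.28 in HD-het (1.25) and 5.87 in HD-homo cells (2.09). Lower in HD-het cells were Otulin, which removes linear ubiquitin chains (-0.84), and Map3k14, the NF-κB inducing kinase of the noncanonical branch (-0.78, with 43.1 ± 2.97 CPM in control and 25.1 ± 2.24 in HD-het cells). In HD-homo against control cells the largest decreases were those of the adaptor Traf5 (-0.67), Commd1, which promotes turnover of RelA (-0.55), and Nfkbil1 (-0.53). Map3k8, a kinase held by the Nfkb1 precursor, fell between HD-het and HD-homo cells (-1.17), as did Traf5 (-1.12) and Ikbkg, the regulatory subunit of the IκB kinase complex (-0.46). Ikbkg had 42.0 ± 3.97 CPM in HD-homo and 57.9 ± 2.79 in HD-het cells (SD, n = 3), and 32.2, 32.2 and 29.5 in the control libraries, so that the 3 core subunits of the kinase (with Chuk and Ikbkb) did not share 1 order of the lines. The adjusted p of these genes in the comparisons named lay between 8.9e-08 (Bcl3) and 0.010 (Nfkbil1) by edgeR's quasi-likelihood test.

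Of 29 receptors and adaptors that feed into the pathway, 24 were tested (all but Edar, Ticam2, Tlr5, Tlr7 and Tnfrsf13c). The counts were 8 higher and 10 lower in HD-homo against control cells, 9 and 5 in HD-het against control cells, and 7 and 8 between the HD lines, which is 75%, 58.3% and 62.5% of the tested genes of the list, beside 58.6%, 65.1% and 71.6% of all tested genes. Their median log2 fold changes were -0.07, 0.18 and 0.02. Ltbr, the lymphotoxin β receptor and a classical trigger of the noncanonical branch, had 2, 2 and 0 reads in control, 685, 617 and 673 in HD-het and 3152, 3758 and 3346 in HD-homo libraries. Its mRNA was at the floor of detection in control cells, and relative to that floor HD-het cells were at least 205-fold higher, and HD-homo cells at least 1010-fold. Between the HD lines it was 4.90-fold higher in HD-homo cells (log2 fold change 2.29 ± 0.0867 SE, edgeR adjusted p = 1.6e-09). Tnfrsf1b, the second TNF receptor, also rose in both HD lines, from 2.04 ± 0.279 CPM (SD, n = 3) in control to 42.0 ± 4.03 in HD-het and 26.9 ± 2.71 in HD-homo cells.

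Tnfrsf11a, the receptor RANK, was in HD-homo cells 7.80-fold above its control level and 4.96-fold above its HD-het level. Il1r1, the interleukin-1 receptor, rose 2.86-fold in both HD lines, to 121 ± 18.3 CPM in HD-het and 121 ± 9.94 in HD-homo cells (SD, n = 3). The adaptor kinase Irak2 rose in HD-het and fell in HD-homo cells, at 23.8 ± 0.859 CPM in control, 49.3 ± 1.55 in HD-het and 10.3 ± 0.581 in HD-homo cells, and the peptidoglycan sensor Nod1 had the same order, at 1.94, 3.97 and 0.772 CPM. Among the other decreases were Tlr6 in both HD lines (-1.97 on the log2 scale in HD-homo and -1.43 in HD-het cells), Ripk2, which acts after Nod1 (-0.67 in HD-het cells), Tirap, an adaptor of Toll-like receptors (-0.40 in HD-het cells), and Tlr3, a sensor of double-stranded RNA (-1.72 in HD-homo against HD-het cells). Tlr4 had a log2 fold change of 0.86 between the HD lines, with 18.5 CPM in HD-homo replicate 2 against 9.07 and 10.7 in the other libraries of that line. The adjusted p of these receptors and adaptors, with Ltbr and Tnfrsf1b, lay in the comparisons named between 6.1e-12 (Ltbr in HD-homo against control cells) and 0.0044 (Tlr4) by edgeR's quasi-likelihood test.

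Known target genes of NF-κB made up a list of 55, of which 40 were tested. The other 15, among them Tnf, Il1a, Il1b, Nos2 and Icam1, did not have enough counts. In HD-homo against control cells 25 were higher and 7 lower, in HD-het against control cells 12 were higher and 13 lower, and in the comparison of both HD lines 25 were higher and 10 lower in HD-homo cells, or 80%, 62.5% and 87.5% of the tested genes of the list, with the same 58.6%, 65.1% and 71.6% over all tested genes. The balance of the target calls in HD-het cells depended on the fit, with 17 higher and 13 lower with the replicate block, 17 and 11 in a fit of the 2 lines alone and 16 and 13 without HD-homo replicate 2. The median log2 fold change of the list was 0.96, 0.07 and 1.18, and with genes at the floor of detection set to their bound the second of these was 0. For genes tested only because they are high in a single line, such as Ccl5, the calls, their direction and these medians are partly fixed by the filter. In the 3 comparisons 4, 3 and 5 of the tested targets were at the floor of detection in 1 of the lines compared. The list was also chosen with earlier results of these data known, so that its shares are a description. Among the increases in HD-homo cells were those of the chemokines Ccl5, with a level at least 571-fold above that of control cells, and Cxcl10, with a level 248-fold above it. Cxcl10 had 55.6, 96.4 and 52.6 CPM in the HD-homo libraries, with replicate 2 highest. C3, the central complement component, had 14.3 ± 2.23 CPM (SD, n = 3) in HD-homo, 0.226 ± 0.108 in control and 0.127 ± 0.0314 in HD-het cells, on at most 10 reads per library in the latter lines.

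Other targets went against that direction. Pdgfb, a platelet-derived growth factor chain, fell to 4.12 ± 1.79 CPM in HD-homo cells from 106 ± 16.0 in control cells (SD, n = 3), Vcam1, an adhesion molecule, to 9.51 ± 1.81 from 112 ± 1.92, and the cell cycle gene Ccnd1 to 264 ± 48.2 from 739 ± 81.5. Among targets with a mean of at least 1 CPM in either line, the largest decreases in HD-het cells were those of the monocyte chemokines Ccl2 and Ccl7 and of Ccnd1. Ccl2 had 76.4, 74.5 and 92.4 CPM in control, 9.62, 11.3 and 7.31 in HD-het and 138, 321 and 77.0 in HD-homo libraries, again with HD-homo replicate 2 far above the rest. Ccl7 had 26.8 ± 4.38 CPM in control and 3.22 ± 0.560 in HD-het cells. Some targets rose in both HD lines. Tnfaip2 rose 10.7-fold in HD-het and 44.4-fold in HD-homo cells. The cytokine Lif rose 4.42-fold in HD-het cells, with 103, 88.2 and 53.1 CPM in the 3 libraries. In HD-homo cells Lif rose 10.2-fold, with 138, 277 and 150 CPM, so that replicate 2 stood far above the others. F3, the coagulation tissue factor, rose 4.28-fold in HD-het cells, to 1390 ± 86.7 CPM (SD, n = 3), and 1.62-fold in HD-homo cells. Between the HD lines Mmp3, a matrix protease, was 7.14-fold, Pdgfb 32.9-fold and Vcam1 2.86-fold lower in HD-homo cells. The adjusted p of these target genes in the comparisons named lay between 2.5e-11 (Ccl5) and 0.00056 (F3 in HD-homo against control cells) by edgeR's quasi-likelihood test.

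**Figure D4:**
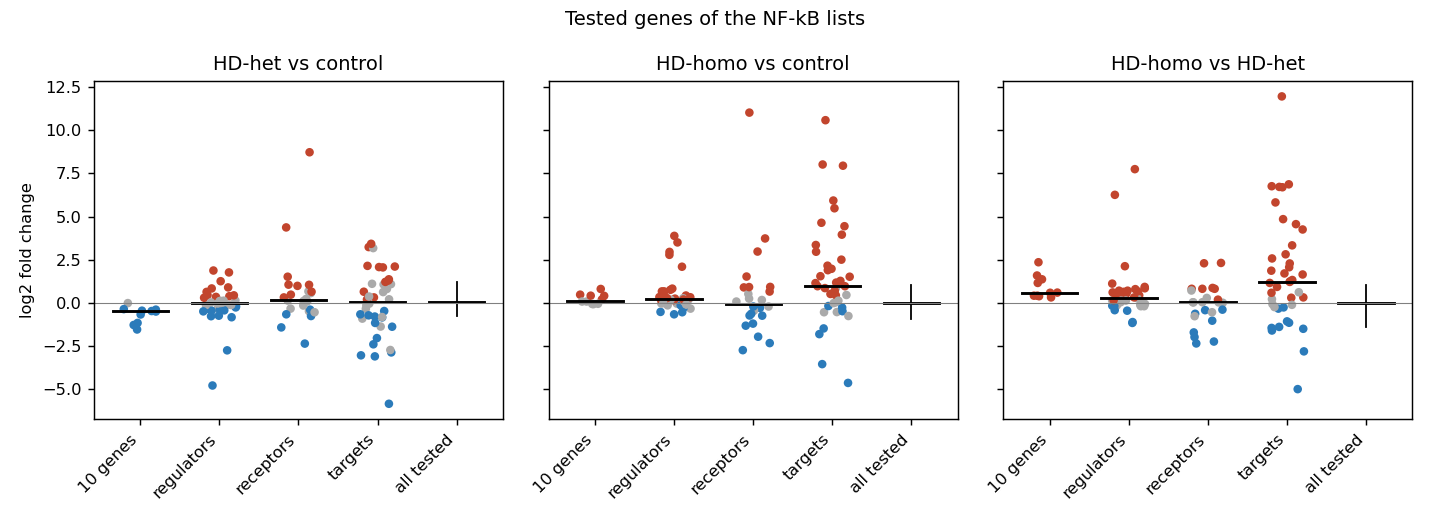
Log2 fold changes of the tested genes among the 10 NF-κB genes, 37 regulators, 24 receptors and adaptors and 40 targets (red higher, blue lower, grey not past an adjusted p of 0.05), with black bars for medians and, at the right, the median and the 10th to 90th percentiles of all 13508 tested genes. The 10 genes lie below 0 in HD-het and above 0 in HD-homo against HD-het cells, while the lists hold genes of both directions, and values of genes at the floor in 1 line, such as Ltbr at 11.03 and Ccl5 at 10.59, are fitted values and not bounds.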

How the data were processed

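Poly(A)-selected, strand-specific RNA-seq libraries of 3 striatal lines were sequenced. The authors deposited whole-number read counts per gene symbol, without normalization. The submitters' processing notes name cutadapt, Bowtie 1.1.2, RSEM 1.3.0, DESeq2 and the builds GRCm38.p5 and mm10. RSEM estimates counts for reads that fit several genes, and the deposited values are whole. Annotation and strand setting are not given in the sources used here.

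Tests were run with edgeR 4.0.16 in R 4.3.3 (filterByExpr with a minimum count of 10, TMM normalization, quasi-likelihood test, 1 mean per line, 9 libraries, Benjamini-Hochberg adjustment over 13508 genes in each comparison). Code was tested on simulated data. Folds are ratios of mean CPM. If no library of a line exceeded 3 counts, the fold is a bound against 3 counts per library (0.0710 to 0.101 CPM), which covers counting error only. Pearson's r used log2 CPM with a prior count of 2. Positions and lengths came from GENCODE M21, promoters from RefSeq.

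The 10 genes and the lists were chosen with earlier results of these data known. From each list were named the 3 largest rises and 3 largest falls per comparison that passed and had a mean of at least 1 CPM in either line, and for each of the 10 genes the 2 genes most like it. Alternatives were DESeq2 1.42.0, other scalings and filters, the 2 lines alone, a replicate block, stricter thresholds, ratios not divided by length, and each library left out.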

Additional observations from a re-analysis of the deposited data

Results flagged for a closer look

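For 4 of the 10 genes the HD lines differed from control cells in opposite directions. Each contrast passed an adjusted p of 0.05 from edgeR's quasi-likelihood test. The rule also required the difference between the HD lines to pass, and its direction follows from the opposite signs, so that it adds no separate support. The share of all tested genes with such opposite calls was not counted. Taken separately, 29.6% of them were called higher in HD-homo and 31.4% lower in HD-het cells against control cells. Neither share is a background for both calls at once, so that the 4 genes have none beside them. The control libraries are shared by both contrasts. The log2 fold change of HD-homo against HD-het cells was 1.15 for Rel (0.47 in HD-homo and -0.68 in HD-het cells against control cells), with the HD-homo value dependent on replicate 2. It was 0.59 for Nfkb1 (0.19 and -0.40), with the HD-homo call lost without control replicate 2. For Nfkbia it was 1.58 (0.41 and -1.17), with the HD-homo call lost without HD-homo replicate 1, and for Nfkbie 2.35 (0.80 and -1.55). In each of the 4 genes all HD-homo libraries were above and all HD-het libraries below the control libraries. Taken separately, 32.7% of all tested genes had higher HD-homo than control libraries and 35.4% lower HD-het than control libraries, without overlap. The share with both was not counted.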

How the results depend on the processing

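Among the alternatives to the results on the 10 genes and the lists, 673 kept direction and side of the threshold or a count within 1.5 times, 13 moved a count, 8 lost a call and 2 changed a sign. The exact test of the ratios cannot pass the threshold, so that its side says nothing about them. Their sign was kept in all 54 values with 1 library left out, and leaving out the division by length cannot change a log2 difference. Over the fits that leave out 1 library each, the number of the 10 genes that differed between HD-homo and control cells ran from 3 to 5, with 3 without control replicate 2, where Rel and Nfkb1 missed the threshold. It was 2 at an adjusted p under 0.01. When the fold change also had to reach 1 on the log2 scale, 0, 3 and 4 of the 10 genes remained in HD-homo against control, HD-het against control and HD-homo against HD-het cells, and of the regulators 5, 5 and 6 and of the receptors 9, 7 and 7. The regulators called between HD-homo and control cells numbered 17 at an adjusted p under 0.01. The share of all tested genes was not counted at these stricter thresholds, so that these counts have no background beside them. With at least 10 counts in every library, 23 targets differed between the HD lines, out of 27 then tested, beside 71.2% of all genes tested in that fit. The value of Relb in HD-het against control cells, -0.02, became 0.02 without control replicate 2 and 0.09 without HD-het replicate 3, ran from -0.07 to 0.09 over all fits that leave out 1 library, and passed in no alternative. The calls of Rel, Nfkb1 and Nfkbia that were lost all concern HD-homo against control cells. Other scalings moved the median log2 fold change of all genes by at most 0.03. Where a count or a sign moved, the cause was not tested beyond what fewer libraries, fewer genes or a stricter threshold imply.

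The replicate numbers were not taken to pair the libraries. Deviations of same-numbered libraries from their line means correlated, across genes, at 0.0332, 0.0219 and 0.00893 between HD-homo and control cells, at 0.0488, 0.145 and 0.133 between HD-het and control cells and at -0.00532, 0.133 and 0.115 between the HD lines. Each HD-het and each HD-homo library correlated best with the control library of its own number, a hint from the data only, and HD-homo replicate 1 did not do so with HD-het cells. With the replicate number as a block, 5, 9 and 10 of the 10 genes were called, as without it, and 8372, 9160 and 9938 genes of the whole table against 7910, 8797 and 9666. Depth limits Nfkbie most, with 66 to 77 reads in the HD-het libraries.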
